A study of Mus musculus with 4 samples.

Results

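Neutrophils pack the products of many genes into their granules or hold them in their cytosol. Of 24391 genes counted in whole E18.5 mouse pancreas, 8 genes of this kind are described here, namely *S100a8*, *S100a9*, *Ngp*, *Camp*, *Ltf*, *Mpo*, *Elane* and *Lcn2*. They were found in the count table by their symbols, each of which had 1 entry. The 8 genes had been chosen from these same libraries by their counts, because 1 control library held most of their reads. Their levels and their difference between genotypes are therefore given as a description of 4 libraries, and the calls of the fits over all genes are printed for them without being read as support.

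RNA-seq compared 2 RestpKO libraries, labelled Pdx1Cre RESTLoxP/LoxP, with 2 control libraries, labelled Pdx1Cre RESTwt, to ask how loss of the transcriptional repressor REST in pancreatic progenitors changes gene expression late in development. Both genotypes carried the *Pdx1*-Cre transgene, had a mixed strain background with C57BL/6 and were taken at E18.5. *Pdx1*-Cre acts in the pancreatic epithelium, where it removes exon 4 of the floxed *Rest* alleles, and blood cells, vessels and mesenchyme of the organ keep the gene. The labels number the samples of a genotype without saying whether each was 1 embryo, so the spread between libraries may in part be technical. The 2 libraries of a genotype were not repeats of the same sample, since they differed in sex by *Ddx3y*, given below.

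The libraries held 20738162 and 24134100 counts in RestpKO 1 and 2, and 16936759 and 18644088 counts in control 1 and 2. Levels are given in CPM, counts scaled to a common library size after weighting each library by the trimmed mean of M values (TMM). *Rest* itself had 12.1 and 9.16 CPM in the RestpKO libraries, against 14.2 and 15.7 CPM in the controls, a log2 fold change of -0.49 (SE 0.23) that did not pass (edgeR adjusted p = 0.593). Replicates differed beyond sampling noise in both genotypes, with a chi-square per degree of freedom of 64.9 in RestpKO and 23.2 in controls. The Y-linked *Ddx3y* had 80.6 and 0 CPM in RestpKO 1 and 2, against 0 and 74.7 CPM in control 1 and 2, so each genotype had 1 male and 1 female library by this gene, which was chosen after its values were seen. Acinar genes, which define the exocrine pancreas, summed to between 208800 and 311800 CPM in every library.

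Neutrophils are short-lived phagocytes that mature from myeloid precursors in steps, and the order of maturation sets the granule in which each protein ends up. Primary (azurophil) granules form first, at the promyelocyte stage, and are filled with enzymes such as myeloperoxidase and neutrophil elastase. Secondary (specific) granules follow at the myelocyte stage with iron-binding and antimicrobial proteins, and the S100 proteins accumulate in the cytosol. In the fetus, neutrophils are made in the liver, later also in the spleen and bone marrow, and the transcription factors C/EBPα, C/EBPε, PU.1 and RUNX1 drive their genes.

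The sequence before each gene's start was searched for short forms of the sites of these factors, to show which letters the members share. All 8 members matched an entry of the promoter table derived from RefSeq (GRCm38.p6), and the 250 bases upstream of the start site were read on both strands, as in all 32851 promoters of the table. Printed here are *S100a9*, the member with the most counts, *Ngp* and *Ltf*, secondary granule genes, and *Mpo*, the main enzyme of primary granules. These windows lie at chr3:90695722-90695971 (minus strand), chr9:110419558-110419807 (plus strand), chr9:111019042-111019291 (plus strand) and chr11:87793534-87793783 (plus strand). Each runs 5′ to 3′ on the strand of its gene and ends at the base before the start site, and capitals mark the C/EBP (TTGCNNAA), PU.1 (GAGGAA) and RUNX (TGTGGT) letters on either strand.
S100a9: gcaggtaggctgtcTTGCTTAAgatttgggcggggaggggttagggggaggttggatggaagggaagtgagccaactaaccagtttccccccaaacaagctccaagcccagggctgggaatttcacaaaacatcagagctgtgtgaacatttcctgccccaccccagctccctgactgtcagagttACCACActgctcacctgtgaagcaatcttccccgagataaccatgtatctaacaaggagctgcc
Ngp: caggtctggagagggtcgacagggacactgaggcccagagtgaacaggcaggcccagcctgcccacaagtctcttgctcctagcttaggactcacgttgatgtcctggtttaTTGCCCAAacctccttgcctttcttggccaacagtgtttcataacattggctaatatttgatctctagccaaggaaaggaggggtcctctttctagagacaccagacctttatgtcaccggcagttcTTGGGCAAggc
Ltf: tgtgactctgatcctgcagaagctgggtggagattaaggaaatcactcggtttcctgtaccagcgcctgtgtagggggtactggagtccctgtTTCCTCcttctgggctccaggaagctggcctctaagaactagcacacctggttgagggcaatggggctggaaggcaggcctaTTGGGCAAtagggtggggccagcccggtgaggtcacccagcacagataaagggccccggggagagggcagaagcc
Mpo: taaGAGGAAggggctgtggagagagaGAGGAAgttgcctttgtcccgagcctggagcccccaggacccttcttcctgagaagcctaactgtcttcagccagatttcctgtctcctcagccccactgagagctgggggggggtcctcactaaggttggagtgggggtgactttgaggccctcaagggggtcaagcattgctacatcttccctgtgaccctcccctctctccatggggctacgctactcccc

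The C/EBP letters TTGCNNAA were in the windows of 4 of the 8 members, *Lcn2*, *Ltf*, *Ngp* and *S100a9*, and in 9.56% of all promoters. *Ngp* held them at -138 to -131 and again at -11 to -4, counted back from -1 at the base before the start site, and *Ltf* held them at -75 to -68. A looser form that contains the first, TTNCNNAA, was in 5 members and in 36.8% of all promoters. The PU.1 letters were in 5 members, *Elane*, *Lcn2*, *Ltf*, *Mpo* and *S100a8*, and in 23.3% of all promoters, with a pair of them in *Mpo* at -247 to -242 and -224 to -219. RUNX letters were in *S100a9* alone of the members, at -64 to -59, and in 14.0% of all promoters. The letters CAGCACC, from the left part of the site that REST binds, were in none of the 8 windows and in 5.73% of all promoters. These matches describe letters and were not tested as binding sites.

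*S100a8* and *S100a9* encode the subunits of calprotectin, the calcium- and zinc-binding complex that is the most abundant protein of the neutrophil cytosol. *S100a8* (mm9 chr3:90472993-90473956, plus strand) had 122 and 44 counts in RestpKO 1 and 2, against 84 and 1508 counts in control 1 and 2. In CPM these were 5.66 and 2.00 in RestpKO and 5.00 and 76.1 in controls, so control 2 held 85.8% of all counts of the gene and the other control lay between the RestpKO libraries. The genotype means were 3.83 ± 2.58 CPM in RestpKO and 40.5 ± 50.2 CPM in controls (SD, n = 2 each), a log2 fold change of -3.41 (SE 1.08).

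*S100a9* (chr3:90496554-90499643, minus strand) lies 22598 bases from *S100a8* and had the most counts of the members, 164 and 150 in RestpKO 1 and 2 against 137 and 2187 in control 1 and 2. Its levels of 7.60 and 6.83 CPM in RestpKO lay just below the 8.16 CPM of control 1, while control 2 had 110 CPM. The 3 lower libraries could not be told apart by counting error, since the ratio to control 1 was 0.932 (95% interval 0.739 to 1.18) in RestpKO 1 and 0.838 (0.66 to 1.06) in RestpKO 2. The means were 7.22 ± 0.546 CPM in RestpKO and 59.2 ± 72.2 CPM in controls, and the log2 fold change was -3.04 (SE 0.96).

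The intervals used here are exact binomial intervals on the counts of 2 libraries, and they cover counting error only. Per kb of exon, *S100a9* reached 211 and *S100a8* 194 CPM in control 2, whereas the other 6 members lay between 4.39 and 21.4 CPM per kb in that library. In RestpKO 2 the pair stood apart from each other, with 13.1 CPM per kb for *S100a9* and 5.11 for *S100a8*.

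**Figure D1:**
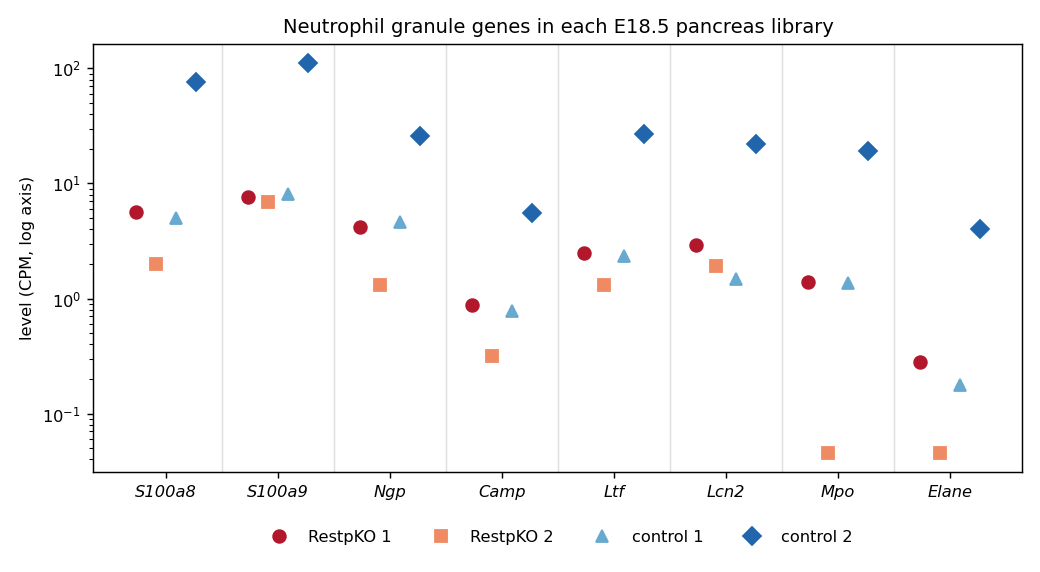
Level of each neutrophil granule gene in CPM (log axis) in the 2 RestpKO and 2 control libraries, 1 point per library. Control 2 is the highest point for all 8 genes, from 4.03 CPM for *Elane* to 110 CPM for *S100a9*, and RestpKO 2 is the lowest for all except *Lcn2*.

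*Ngp*, *Camp*, *Ltf* and *Lcn2* belong to the secondary granules. *Ngp* encodes neutrophilic granule protein, a relative of the cathelicidins, and *Camp* encodes the cathelicidin precursor, from which an antimicrobial peptide is cut. *Ngp* (chr9:110322254-110325514, plus strand) had 91 and 29 counts, or 4.22 and 1.32 CPM, in RestpKO 1 and 2, against 77 and 516 counts, or 4.58 and 26.0 CPM, in control 1 and 2. Both RestpKO libraries were below both controls, although RestpKO 1 was within counting error of control 1 (ratio 0.921, 0.672 to 1.26). Its means were 2.77 ± 2.05 CPM in RestpKO and 15.3 ± 15.2 CPM in controls, and the log2 fold change was -2.47 (SE 0.81).

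*Camp* (chr9:109749889-109751970, minus strand) was the least abundant of the secondary granule genes, with 19 and 7 counts in RestpKO 1 and 2 against 13 and 110 counts in control 1 and 2. At 0.881 and 0.319 CPM in RestpKO and 0.774 and 5.55 CPM in controls, the groups overlapped, and control 2 was 6.30 times the next library. Its log2 fold change was -2.40 (SE 0.90).

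*Ltf* (chr9:110921796-110945270, plus strand), which encodes the iron-binding protein lactoferrin, had 54 and 29 counts, or 2.50 and 1.32 CPM, in RestpKO 1 and 2. The controls had 39 and 530 counts, or 2.32 and 26.7 CPM. Here control 2 was 10.7 times the next library, which was RestpKO 1, and the log2 fold change was -2.93 (SE 0.96). Of all members *Ltf* followed the mean profile of the group most closely, at a root mean square distance of 0.08 in centred log2 CPM, and *Mpo* least, at 0.49.

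*Lcn2* (chr2:32240153-32243317, minus strand) encodes lipocalin 2, which binds bacterial siderophores and is also made by inflamed epithelia. It had 63 and 42 counts, or 2.92 and 1.91 CPM, in RestpKO 1 and 2, against 25 and 434 counts, or 1.49 and 21.9 CPM, in control 1 and 2. Among the members it alone had its lowest level in control 1, and RestpKO 1 was above control 1 beyond counting error (ratio 1.96, 1.22 to 3.26). The log2 fold change over all 4 libraries was -2.28 (SE 0.97), again with control 2 as the only library above 3 CPM.

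*Mpo* and *Elane* mark the earlier, primary granules. *Mpo* (chr11:87607083-87617915, plus strand), myeloperoxidase, had 30 counts (1.39 CPM) in RestpKO 1 and 1 count (0.0456 CPM) in RestpKO 2. It had 23 counts (1.37 CPM) in control 1 and 376 counts (19.0 CPM) in control 2. RestpKO 2 was thus below RestpKO 1, at a ratio of 0.0327 (0.0008 to 0.197), and no other member had a lower ratio between the RestpKO libraries. The log2 fold change of *Mpo*, -3.83 (SE 1.30), was the most negative of the 7 fitted and had the largest error. Its place as the most negative rested on the 1 count in RestpKO 2. It was -2.87 without that library, where *S100a9* was at -2.96, and -7.62 without RestpKO 1. Most of its size rested on control 2, since it was -0.93 without that library.

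*Elane* (chr10:79349057-79350961, plus strand), neutrophil elastase, had 6 and 1 counts in RestpKO 1 and 2, against 3 and 80 counts in control 1 and 2. It did not pass the filter on low counts, so it was left out of the edgeR fit, and its log2 fold change was -3.67 in the fit without a filter. Its levels were 0.278 and 0.0456 CPM in RestpKO and 0.179 and 4.03 CPM in controls, and control 2 held 88.9% of its counts, the highest share of the 8 genes.

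Across genotypes, 7 of the 8 genes passed the filter, and all 7 had a negative log2 fold change, with a median of -2.93 beside -0.0048 over all 14550 genes tested. After adjustment 0 of the 7 were called by edgeR, where 4 genes, or 0.0275% of those tested, were called lower in RestpKO. At an unadjusted p under 0.05 the count was 7 of 7, beside 5.61% of all genes tested. DESeq2 called 0 of the 8, beside 0.53% of the genes it gave an adjusted p, and limma-voom called 0 of 7, beside 0.0206% of all genes tested. Both RestpKO libraries were below both controls for 2 of the 8 members, *S100a9* and *Ngp*, beside 21.2% of all genes tested. Because the members were chosen on these values, nothing is read from these counts.

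The size of that fold change rested on 1 library. Without control 2 the median log2 fold change of the 7 genes was -0.37, and edgeR called 0 of them, beside 0.495% of all genes called lower. Without control 1 it was -3.81 and 7 were called, beside 0.818% of all genes called lower. That last fit sets the RestpKO libraries against control 2 alone, the library on which the genes were chosen, so nothing is read from its calls. Set against control 1 alone, the mean of both RestpKO libraries differed by a median of -0.27 (log2 CPM + 0.5, 8 genes), and this became 0.10 when RestpKO 2 was left out and -0.63 when RestpKO 1 was left out. Control 2, in contrast, exceeded the mean of the other 3 libraries by a median of 3.29 on the same scale, and by 3.16 to 3.47 when any 1 of them was left out.

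Ratios to control 1 showed how the 3 lower libraries were ordered. RestpKO 1 over control 1 ran between 0.921 and 1.96, with a median of 1.11, and the interval held 1 for 7 of 8 genes. RestpKO 2 over control 1 ran between 0.0333 and 1.29, with a median of 0.406, and 4 genes were below 1 beyond counting error, namely *S100a8*, *Ngp*, *Ltf* and *Mpo*. Between the RestpKO libraries themselves, 6 of 8 genes were lower in RestpKO 2 than in RestpKO 1 and 2 could not be told apart, with a median ratio of 0.358. Control 2 over control 1 ran between 5.68 for *Ngp* and 22.6 for *Elane*, with a median of 13.7, and all 8 intervals lay above 1.

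**Figure D2:**
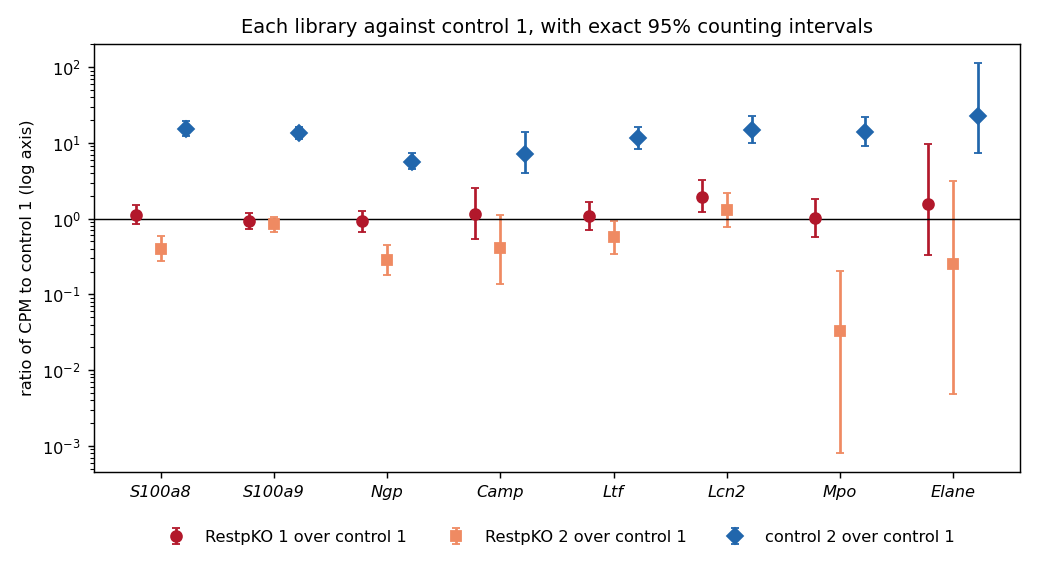
Ratio of the CPM of RestpKO 1, RestpKO 2 and control 2 to that of control 1 for each gene (log axis), with bars for the exact 95% interval of counting error and a line at 1. The RestpKO 1 points lie on or near the line (median 1.11), the RestpKO 2 points mostly under it (median 0.406), and all control 2 points above it (median 13.7).

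Added up, the 8 genes had 549 and 303 counts in RestpKO 1 and 2, against 401 and 5741 counts in control 1 and 2. As a share of the library this was 0.00265% and 0.00126% in RestpKO and 0.00237% and 0.0308% in controls. The sum in control 2 was 12.1 times that of control 1 in CPM, while RestpKO 1 was at 1.07 and RestpKO 2 at 0.578 times control 1. In whole tissue, fewer cells of a type and less RNA per cell cannot be told apart, so these sums do not count neutrophils. The RestpKO 1 and control 2 libraries were both male by *Ddx3y*, and stood at 25.5 and 290 summed CPM.

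The make-up of the granule counts also differed between libraries. *S100a8* and *S100a9* together made up 52.1% and 64.0% of them in RestpKO 1 and 2, against 55.1% and 64.4% in control 1 and 2. The secondary granule genes took 41.3% and 35.3% in RestpKO and 38.4% and 27.7% in controls. *Ngp* alone took 16.6% and 9.57% in RestpKO, against 19.2% and 8.99% in controls. The primary granule pair, *Mpo* and *Elane*, took 6.56% (4.63% to 8.96%) in RestpKO 1 but 0.66% (0.08% to 2.36%), or 2 of 303 counts, in RestpKO 2. In controls the pair took 6.48% (4.28% to 9.36%) in control 1 and 7.94% (7.26% to 8.67%) in control 2. RestpKO 2 therefore had an interval below those of the other 3 libraries, which overlapped each other, and it rested on *Mpo* more than on *Elane*. In RestpKO 2 *S100a9* made up 49.5% of the granule counts, beside 29.9% in RestpKO 1, 34.2% in control 1 and 38.1% in control 2.

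**Figure D3:**
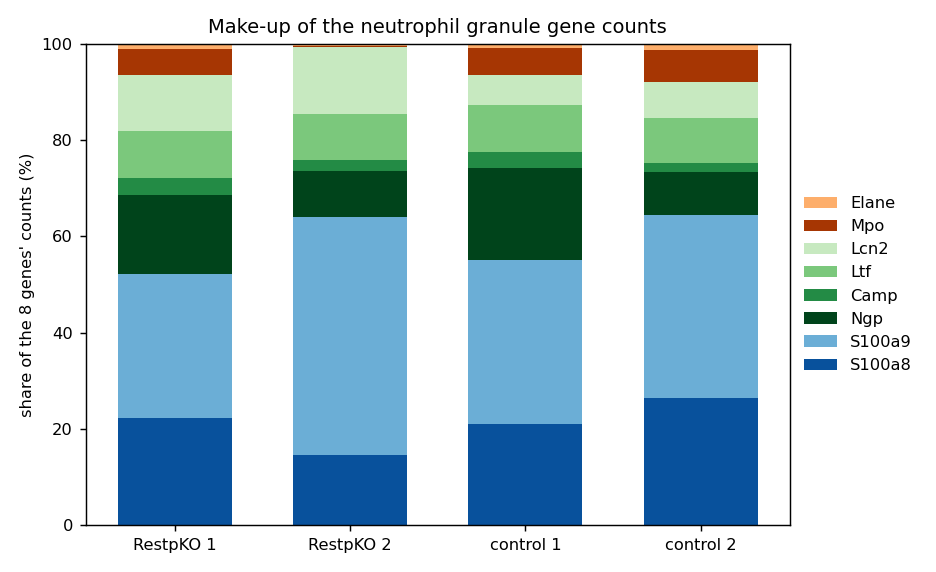
Share of the summed counts of the 8 genes taken by each gene in RestpKO 1, RestpKO 2, control 1 and control 2, stacked to 100%. Blue marks the cytosolic S100 genes, green the secondary granule genes and orange the primary granule genes, whose part is 0.66% in RestpKO 2 and 6.48% to 7.94% in the other libraries.

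The excess in control 2 is placed among all genes here as a description only, since the members were chosen on it. Among the genes tested, 3 had a larger excess in control 2 over the mean of the other libraries than *S100a8* and 5 a larger excess than *Mpo*, and for *Camp*, the lowest member, the number was 38. *Ddx3y* and *Eif2s3y*, both Y-linked, and the ribosomal protein gene *Rpl29* were the 3 genes above *S100a8*, named after their values were seen. *Rpl29* was also high in the other control, with 1.48 and 1.09 CPM in RestpKO 1 and 2 against 92.8 and 170 CPM in control 1 and 2. Control 2 was the highest library for 8 of 8 members, beside 20.1% of the genes tested, a count that the choice of members fixed. Over all genes tested, 1.22% were at least 1 log2 unit higher in control 2 than in control 1, and 0.137% were at least 3 units higher.

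The excess was then measured in genes next to the members on the chromosome. *Camp*, *Ngp* and *Ltf* lie on chromosome 9 with gaps of 570284 and 596282 bases between them, and the 16 tested genes of the stretch other than the members had log2 ratios of control 2 over the other libraries between -0.43 and 0.52, with a median of 0.10. Around *S100a8* and *S100a9*, 20 tested genes within 500000 bases lay between -0.47 and 0.44. Within 50000 bases of *Lcn2*, 5 tested genes lay between -0.25 and 0.33, and 4 around *Elane* lay between -0.07 and 0.58. The gene *Prtn3*, which encodes proteinase 3 of the same granules and neighbours *Elane*, did not pass the filter and had 0.278 and 0.137 CPM in RestpKO 1 and 2, against 0.238 and 2.52 CPM in control 1 and 2.

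Other genes of the neutrophil programme were followed in lists by stage. Of 8 further primary granule and precursor genes, 3 were tested, and none passed by edgeR or DESeq2. The summed level of the list was 178 and 150 CPM in RestpKO 1 and 2, against 164 and 156 CPM in control 1 and 2, and rested on *Serpinb1a*, a protease inhibitor, and *Ctsc*, the protease that activates granule enzymes, both also made outside neutrophils. Its median log2 fold change was -0.18. Control 2 was highest for 4 of the 8, beside 20.1% of all genes tested. Of the rarer members, *Ctsg*, cathepsin G, had 0.186 and 0.273 CPM in RestpKO 1 and 2 against 0.238 and 2.37 CPM in control 1 and 2, and *Ms4a3* had 0.0464 and 0 CPM in RestpKO against 0 and 1.06 CPM in controls. *Bpi*, a bactericidal protein of primary granules, was instead highest in RestpKO 1, with 0.278 and 0 CPM in RestpKO and 0.0595 and 0.0504 CPM in controls. Its counts were 6 and 0 in RestpKO and 1 and 1 in controls, so only RestpKO 1 was above the 3 counts taken as the limit of detection. *Ctsg*, *Ms4a3* and *Bpi* were named after their values were seen.

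Of 16 secondary and tertiary granule and oxidase genes, 15 were tested, with 13 below 0 and a median log2 fold change of -1.37. By edgeR none was called and 9 were lower at an unadjusted p under 0.05, beside 5.61% of all genes tested. DESeq2 called 1, beside 0.53% of the genes it gave an adjusted p. This was *Cybb*, a subunit of the phagocyte oxidase, at 5.19 and 4.96 CPM in RestpKO 1 and 2 against 12.6 and 12.4 CPM in control 1 and 2. *Cybb* thus had similar levels in both controls, unlike the 8 granule genes. Control 2 was highest for 13 of the 16, beside 20.1% of all genes tested. Both RestpKO libraries were below both controls for 8 of the 16, beside 21.2%. *Mmp8*, neutrophil collagenase, had 2.13 and 1.09 CPM in RestpKO and 1.43 and 30.8 CPM in controls, and *Mmp9*, gelatinase of the tertiary granules, had 0.556 and 0.364 CPM in RestpKO and 0.833 and 17.9 CPM in controls. *Cyba*, an oxidase subunit found in many cells, overlapped between genotypes, with 17.2 and 24.4 CPM in RestpKO and 17.2 and 21.5 CPM in controls. *Pglyrp1*, a peptidoglycan-binding granule protein, ran the other way, at 6.91 and 18.9 CPM in RestpKO and 1.67 and 7.87 CPM in controls, a log2 fold change of 1.42 (SE 0.69) that was not called. *Cybb*, *Mmp9* and *Pglyrp1* were named after their values were seen.

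Of the lists, the surface and late genes of neutrophils had the median log2 fold change nearest to that of the 8 granule genes. This measure does not show which control library was high. The table held 19 of the 20, and 16 were tested, all below 0 with a median log2 fold change of -2.76. None was called by edgeR, and 15 were lower at an unadjusted p under 0.05, beside 5.61% of all genes tested. DESeq2 called 1, beside 0.53% of the genes it gave an adjusted p. Control 2 was highest for 17 of the 19, beside 20.1% of all genes tested. Both RestpKO libraries were below both controls for 12 of the 19, beside 21.2%. The sum of the list was 13.0 and 11.9 CPM in RestpKO 1 and 2, against 19.1 and 161 CPM in control 1 and 2. *Csf3r*, the receptor of the granulocyte growth factor G-CSF, had 1.81 and 2.55 CPM in RestpKO and 1.91 and 14.6 CPM in controls. *Cxcr2*, the chemokine receptor of mature neutrophils, had 0.603 and 0.592 CPM in RestpKO and 0.476 and 7.87 CPM in controls. *Stfa2*, a stefin A protease inhibitor, had 0.974 and 0.41 CPM in RestpKO and 1.37 and 17.7 CPM in controls, with the reservation that the stefin A genes are close copies and may share reads. *Cxcr2* was named after its values were seen, and *Ly6g* was not analysed here.

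Among 8 transcription factors of the granulocyte line, 7 were tested, with a median log2 fold change of -0.62 and none called by edgeR or DESeq2. By edgeR, 3 were lower at an unadjusted p under 0.05, beside 5.61% of all genes tested. Control 2 was highest for 4 of the 8, beside 20.1% of all genes tested. Both RestpKO libraries were below both controls for 4 of the 8, beside 21.2%. *Gfi1*, a repressor needed for neutrophil maturation, had 25.1 and 32.7 CPM in RestpKO 1 and 2, against 26.1 and 27.0 CPM in control 1 and 2. *Cebpa* had 7.97 and 12.2 CPM in RestpKO and 10.7 and 10.6 CPM in controls. *Cebpe*, the factor of the secondary granule stage, had 1 and 2 counts in RestpKO and 3 and 14 counts in controls, too few to pass the filter, and was named after its values were seen.

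Without a fixed list, the genes nearest to the mean profile of the 8 members over the 4 libraries were sought among 13612 tested genes with a mean of at least 1 CPM. Of the 20 nearest, 7 were surface and late neutrophil genes, 5 secondary and tertiary granule or oxidase genes, 3 erythroid genes and 5 in none of the lists. The nearest of all outside the lists was *Gm5483* (root mean square distance 0.24), a predicted gene on chromosome 16 (36184298 to 36188197) in the stretch that holds the stefin A genes, with 1.67 and 0.774 CPM in RestpKO 1 and 2 against 1.13 and 22.0 CPM in control 1 and 2. *Coch*, which encodes the secreted protein cochlin, had 0.742 and 0.774 CPM in RestpKO and 1.37 and 13.5 CPM in controls. *Stab2*, a scavenger receptor of sinusoidal endothelium in liver and spleen, had 0.788 and 1.09 CPM in RestpKO and 0.833 and 17.7 CPM in controls. *Nfe2*, a transcription factor of megakaryocytes and red cell precursors, had 1.21 and 0.729 CPM in RestpKO and 1.25 and 6.10 CPM in controls. The other 4 of the 8 nearest outside the lists were *Slfn4*, *Mcemp1*, *Mylk3* and the embryonic globin gene *Hbb-y*.

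Markers of other cells were set beside the granule genes for the same libraries. Erythroid genes moved with them: 11 of 20 were tested, all below 0 with a median of -2.67. None was called by edgeR, and 10 were lower at an unadjusted p under 0.05, beside 5.61% of all genes tested. DESeq2 called 6 lower, beside 0.53% of the genes it gave an adjusted p. Their sum was 28.6 and 28.3 CPM in RestpKO 1 and 2, against 47.4 and 202 CPM in control 1 and 2. Control 2 was highest for all 15 with a count, beside 20.1% of all genes tested. Both RestpKO libraries were below both controls for 10 of the 15, beside 21.2%. *Slc4a1*, the anion exchanger of red cells, had 3.06 and 1.41 CPM in RestpKO and 10.2 and 52.4 CPM in controls, and *Alas2*, the erythroid enzyme that begins haem synthesis, had 15.5 and 18.8 CPM in RestpKO and 17.3 and 58.5 CPM in controls. The 4 adult globin genes of the list were at 0 counts in every library and so give no measure of red cells.

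Lymphocyte genes were rare, with sums of 4.31 and 4.96 CPM in RestpKO 1 and 2 and 5.00 and 16.0 CPM in control 1 and 2. Control 2 was highest for 9 of 11, beside 20.1% of all genes tested. *Cd3e*, the gene of the list with the highest mean, was instead highest in control 1, with 1.16 and 2.05 CPM in RestpKO and 2.20 and 1.61 CPM in controls. *Rag1*, the recombinase of immature lymphocytes, had 0 and 0 CPM in RestpKO and 0.119 and 3.43 CPM in controls. *Tlx1*, a homeobox gene needed for the spleen, had 1.67 and 2.00 CPM in RestpKO and 1.07 and 6.81 CPM in controls, and *Nkx2-5* had 0.0464 and 0 CPM in RestpKO and 0 and 1.01 CPM in controls. A count of 0 allows a level of up to 0.139, 0.137, 0.179 and 0.151 CPM in RestpKO 1, RestpKO 2, control 1 and control 2, taking 3 counts as the limit. The other spleen stroma genes of that list did not move with them, since *Madcam1* had 16.1 and 21.2 CPM in RestpKO and 14.7 and 11.3 CPM in controls, and *Nkx2-3* had 6.31 and 6.65 CPM in RestpKO and 5.00 and 6.46 CPM in controls. The spleen stroma list as a whole summed to 24.1 and 29.9 CPM in RestpKO and 20.8 and 25.5 CPM in controls. *Rag1* and *Nkx2-5* were named after their values were seen.

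Hepatocyte genes, in contrast, were highest in control 1 for all 12 of the list and low in control 2. All 12 were tested and below 0, with a median log2 fold change of -2.59. That median was close to the one of the granule genes, although the high control library was the other one. Their sum was 208 and 141 CPM in RestpKO 1 and 2, against 943 and 111 CPM in control 1 and 2, with *Alb* at 52.3 and 8.66 CPM in RestpKO and 342 and 10.1 CPM in controls. *Trf*, transferrin, which other tissues make too, gave most of the sum in control 2, at 107 and 125 CPM in RestpKO and 241 and 95.3 CPM in controls. *Alb* was lower in RestpKO 2 than in control 2.

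Macrophage genes summed to 372 and 467 CPM in RestpKO 1 and 2, against 476 and 395 CPM in control 1 and 2. Genes of mast cells, basophils and eosinophils summed to 93.2 and 162 CPM in RestpKO against 229 and 215 CPM in controls. Of this second list 8 were tested, all below 0 with a median of -0.95, and edgeR called none. Control 2 was highest for 8 of its 12 genes, beside 20.1% of all genes tested. Both RestpKO libraries were below both controls for 7 of the 12, beside 21.2%. DESeq2 called 1 lower, beside 0.53% of the genes it gave an adjusted p. This was *Cpa3*, at 31.5 and 47.2 CPM in RestpKO and 103.5 and 76.7 CPM in controls. Genes of a pan-leukocyte list, not all of them shared by every leukocyte, summed to 147 and 172 CPM in RestpKO and 214 and 268 CPM in controls. All 10 were below 0, with a median of -0.62. DESeq2 called 2 lower, *Ptprc* and *Itgam*, beside 0.53% of the genes it gave an adjusted p. Both RestpKO libraries were below both controls for 8 of the 10, beside 21.2% of all genes tested. *Ptprc* and *Itgam*, named after their values were seen, were higher in both controls than in either RestpKO library. *Ptprc*, the leukocyte antigen CD45, had 5.42 and 7.29 CPM in RestpKO and 14.9 and 22.2 CPM in controls. *Itgam*, an integrin of myeloid cells, had 3.89 and 7.15 CPM in RestpKO and 17.3 and 20.1 CPM in controls.

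Megakaryocyte and platelet genes summed to 18.8 and 33.2 CPM in RestpKO 1 and 2 and 26.4 and 29.8 CPM in control 1 and 2. Genes that inflamed epithelia raise, among which *Lcn2* is often counted, were led by *Reg1*, a secreted acinar protein, at 1164 and 1420 CPM in RestpKO and 1642 and 998 CPM in controls. *Reg3b*, an antibacterial lectin, had 3.99 and 7.24 CPM in RestpKO and 7.32 and 13.2 CPM in controls. *Saa1* and *Saa2* had no counts in any library. The part that red cell, lymphoid, spleen or inflamed epithelial RNA had in the granule gene levels of control 2 was not tested.

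**Figure D4:**
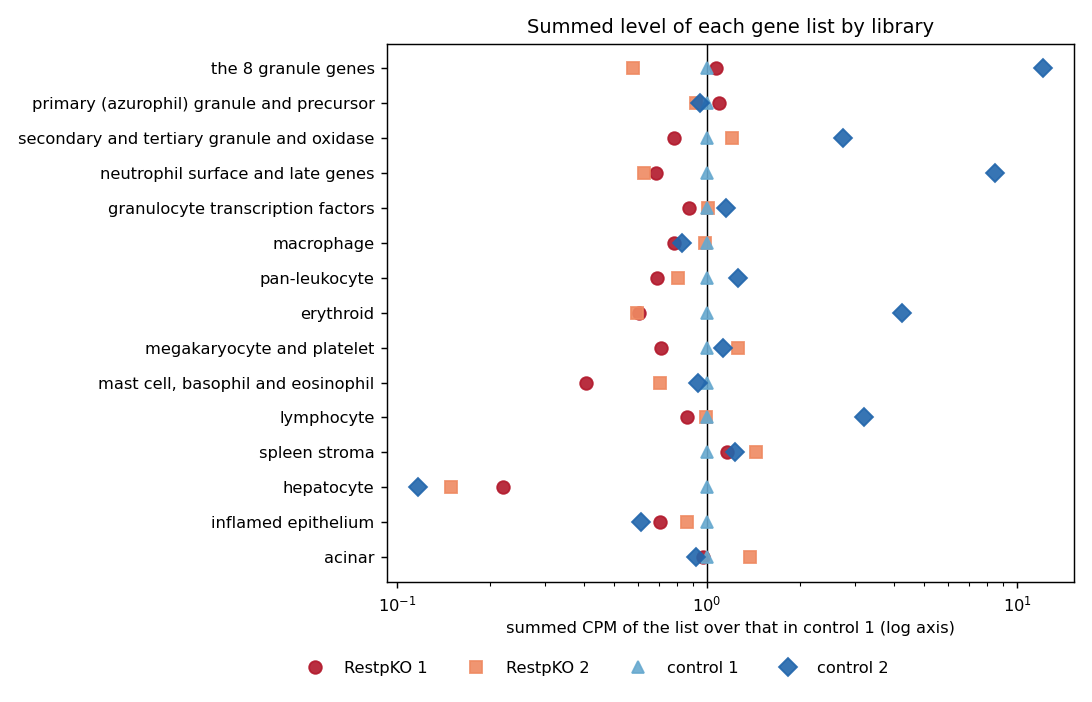
Summed CPM of each gene list in each library, divided by its sum in control 1 (log axis), with 1 point per library. The 8 granule genes (12.1 in control 2) lie farthest to the right, followed by the surface and late neutrophil, erythroid, lymphocyte and secondary granule lists, while the hepatocyte list lies to the left in every library other than control 1.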

How the data were processed

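RNA-seq counts of 4 libraries of E18.5 pancreas were analysed, 2 from RestpKO and 2 from control embryos, and each column was matched by its name to 1 labelled sample. The study's methods give 3 pancreases per genotype, without saying which of them these libraries are. The deposited table gives raw counts, in whole numbers, for each gene. The authors aligned paired-end reads with STAR to a genome they call NCBI36/mm9, kept uniquely mapped reads and assigned them to UCSC mm9 genes with featureCounts 1.5 (submitters' processing notes). The strand setting, and whether reads or pairs were counted, are not given in the sources used here, so overlapping genes may share reads and close gene copies may lose them. Positions and exon lengths came from an annotation of mm9 (NCBI build 37), and promoters from RefSeq (GRCm38.p6), without conversion between builds.

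Of 24391 genes, 5915 had no count. The 14550 genes left by filterByExpr were tested with edgeR 4.0.16 under R 4.3.3, by its quasi-likelihood test after TMM scaling. The model held genotype alone, p-values were adjusted by Benjamini-Hochberg over all genes tested, and 0.05 was the threshold. Each SE of a log2 fold change was derived from that test, as its absolute value over the square root of the F statistic. The common biological coefficient of variation was 0.211, with 2 residual degrees of freedom. Differences on the log2 CPM scale used a pseudocount of 0.5 CPM. Intervals of CPM ratios and shares are exact binomial at 95%. Alternatives were DESeq2 1.42.0 (with its size factors in edgeR too), limma-voom (limma 3.58.1), library sizes without TMM, other filters, other pseudocounts, the replicate number as a block, and each library left out once. The edgeR steps were tested on simulated data with known changes. Tables and intervals were made with Python 3.11.15 and scipy 1.17.1.

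The 8 genes, the gene lists and the tests were chosen with earlier results of these data known, so none is independent evidence. Named were the 8 genes, *Rest*, up to 3 genes of each list by mean CPM, and up to 8 genes outside the lists with the nearest profile. Others are said to have been chosen after their values were seen. Some genes of the lists are not reported here by name.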

Additional observations from a re-analysis of the deposited data

How the results depend on the processing

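The median log2 fold change of the granule genes was -2.93 and stayed between -3.03 and -2.15 with DESeq2's size factors, library sizes alone, no filter, a filter of 1 CPM in 2 libraries, DESeq2, limma-voom and the replicate block, and 0 members were called in each of these. Leaving out 1 library at a time, it ran between -3.81 (without control 1) and -0.37 (without control 2), with 0 to 7 members called. These fits assume that the lone library of a genotype varies like the other genotype. Over all genes edgeR called 0 higher and 4 lower in RestpKO, library sizes alone gave 1 lower, DESeq2 gave 26 higher and 77 lower, and leaving out 1 library gave 1 to 62 higher and 0 to 495 lower. The cause of these moves was not tested. The excess of control 2 over the other libraries was 2.70 with a pseudocount of 2 CPM and 3.78 with 0.1 CPM. Same-numbered libraries deviated from their group means with a correlation of 0.0652 over genes, and the labels do not say that a number marks a shared litter or day. With the replicate block, 4 genes were called lower, 0 higher and the median of the members was -2.15. With 2 libraries a genotype, 1 library can set a mean, and no group was large enough to be searched for single libraries far from the others. *Mpo* and *Elane* had 1 count each in RestpKO 2, below the 3 counts taken as the limit of detection. No sequencing date or batch was given in the labels.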
